A study of Oryctolagus cuniculus with 12 samples.

Results

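The uterine response to lipopolysaccharide (LPS), the endotoxin of Gram-negative bacteria, was measured here as 1 difference averaged over cyclosporine A (CsA), an inhibitor of calcineurin. The comparison set the 6 libraries of rabbits given LPS (groups LPS and LPS+CsA) against the 6 libraries of rabbits given none (groups CsA and Control), with CsA as a second factor in the model. It used 12 of 12 libraries and 12794 of 17301 genes, those with at least 1 FPKM (fragments per kilobase of transcript, scaled to the mapped fragments of the library) in at least 3 libraries. Members were chosen by treatment label alone and by no expression value.

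All animals were New Zealand White rabbits, 3 per group and 1 library per animal, whose estrus and ovulation had been synchronised with the gonadotropins eCG and hCG. The LPS group received LPS (serotype 055:B5) at 4 mg/kg into the reproductive tract and no CsA. The LPS+CsA group received LPS at 4 mg/kg and CsA at 20 mg/kg into muscle. The CsA group received saline and CsA at 20 mg/kg, and the Control group received saline and no CsA. Uterine body was taken 3 h after treatment. The labels give no age. They disagree on the route of infusion (intrauterine or intravaginal), on the injection given in place of CsA (its solvent or saline) and on whether CsA followed the infusion by 3 h, so what separates the groups is known only to that extent.

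The libraries were of similar make-up. Their FPKM sums lay between 579986 and 747163, between 11945 and 12398 genes reached 1 FPKM, and the 10 most abundant genes took between 15.4% and 20.3% of the sum. The library CsA 2 had the lowest median correlation with the others at 0.943, against 0.967 for the highest, and LPS 1 and CsA 2 led the leading axes of variation. Gene symbols came from the authors' deposited comparison tables and were available for 256 of the genes tested, which the authors had chosen for differences among these same libraries. None of 5 uterine markers (such as the estrogen and progesterone receptors) and none of 12 smooth muscle markers carried a symbol, so the tissue label could not be checked against them. The same holds for the macrophage markers, the cytokines and the LPS receptor genes, which were not analysed here.

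LPS is recognised by Toll-like receptor 4 with CD14 and MD-2. Signalling through MyD88 activates NF-kB and induces cytokines, chemokines and feedback inhibitors, whereas signalling through TRIF activates IRF3 and induces type I interferon and interferon-stimulated genes. In the uterus, epithelium, stroma and resident leukocytes all carry this receptor. CsA binds cyclophilin A, and the complex blocks calcineurin and thereby NFAT, the transcription factor that drives cytokine genes in activated T cells.

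Across genes, no difference passed the test. With limma on log2(FPKM + 1) and Benjamini-Hochberg adjustment over all 12794 genes, 0 genes (0.0%) reached an adjusted p of 0.05, and the smallest adjusted p was 0.298. At an unadjusted p under 0.05 there were 1539 genes (12.0%), where 639.7 would be reached if no gene differed. Of these, 980 (7.66% of genes tested) were higher and 559 (4.37%) were lower with LPS. The share that was higher depended on the scaling, at 63.7% with FPKM as deposited, 53.9% after median-of-ratios rescaling and 50.7% after quantile normalization. Differences of either size lay above 0 for 52.6% of genes and below 0 for 47.4%. They were small, with a median absolute log2 difference of 0.13 beside a median standard error of 0.13. A difference of at least 2-fold with an unadjusted p under 0.05 was seen in 43 genes (0.336%) that were higher and 28 genes (0.219%) that were lower. The values that follow describe these 12 animals, and none of the named genes is called changed.

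The averaged difference joins a pair of comparisons that share no library, LPS against Control without CsA and LPS+CsA against CsA under CsA. Each had 0 genes at an adjusted p under 0.05, with smallest adjusted values of 0.405 and 0.696 in limma. Both were read from 1 model of all 12 libraries. Their p-values therefore share 1 estimate of the spread and are not independent. At an unadjusted p under 0.05 there were 839 genes (6.56%) for LPS against Control, 4.1% of genes tested on the higher side and 2.45% on the lower, and 892 genes (6.97%) for LPS+CsA against CsA. The sign was the same in both for 8158 genes (63.8%). Across the 12794 genes the 2 sets of differences had a Pearson r of 0.24 and a Spearman rho of 0.34, which describe these libraries, since genes are not independent replicates. Genes with an unadjusted p under 0.05 and the same sign in both comparisons numbered 93 (0.727%) on the higher side and 30 (0.234%) on the lower. Of the 93, 7 carried a symbol, namely AGT, RASGRF2, ZFP62, CA9, FGL2, VGLL3 and FAM166B, and none of the 30 did. The test of whether the LPS difference itself differed by CsA gave 0 genes at an adjusted p under 0.05 and 392 (3.06%) at an unadjusted one, with a smallest adjusted p of 0.497.

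**Figure D1:**
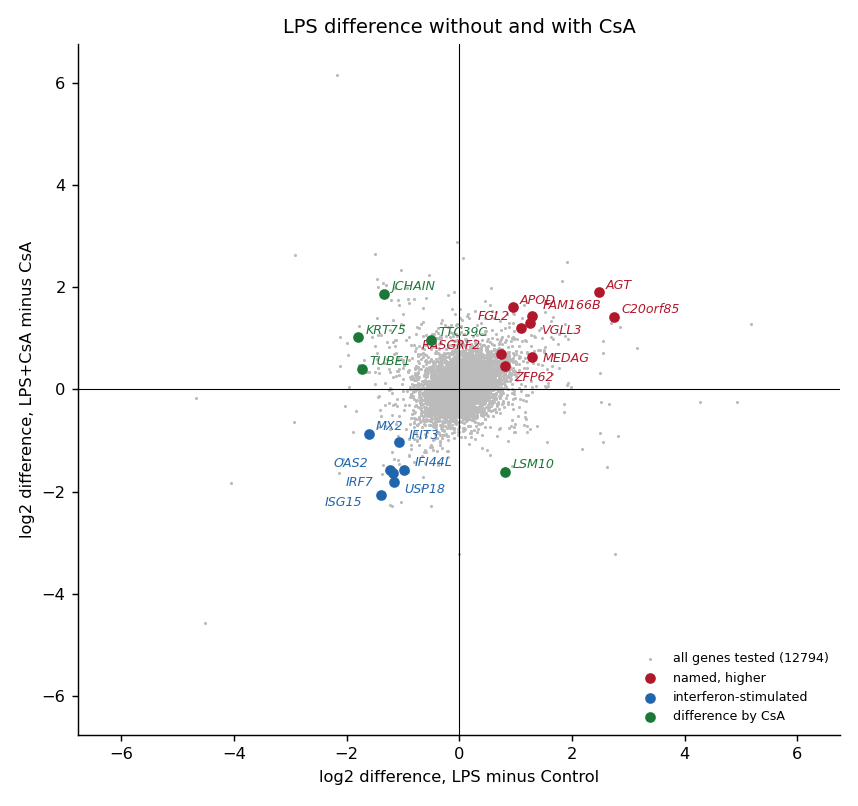
Each grey point is 1 of 12794 genes, with the log2 difference of LPS minus Control on the horizontal axis and that of LPS+CsA minus CsA on the vertical axis. AGT and C20orf85 lie far out in the upper right quadrant, the interferon-stimulated genes in the lower left, and JCHAIN, KRT75 and LSM10 in the quadrants of opposite sign.

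In some genes the LPS libraries did not overlap the others. That did not always go with a small p, as limma's unadjusted p was 0.0964 for ENSOCUG00000009237, a gene without overlap. All 6 LPS libraries lay above all 6 others for 56 genes (0.438%) and below them for 15 genes (0.117%). Of the 56, 4 had a symbol, RASGRF2, ZFP62, LARP6 and MLF1, the last pair named after their values were seen. All 4 were on the authors' list for LPS against Control, so their higher level there was part of how they were picked. Without LPS, RASGRF2 reached 1 FPKM only in Control 1, and MLF1 only in CsA 1 and Control 3. Both therefore needed the LPS libraries to pass the filter on low values. RASGRF2, a calcium-regulated exchange factor that activates Ras, had 2.80, 2.67 and 1.46 FPKM in the LPS libraries and 2.50, 1.37 and 1.42 FPKM in the LPS+CsA libraries, against 0.477, 0.834 and 0.771 FPKM in CsA and 1.02, 0.924 and 0.885 FPKM in Control. Its lowest LPS library stood at 1.37 FPKM and its highest library without LPS at 1.02 FPKM. The averaged log2 difference was 0.72 ± 0.15 (SE), with 0.74 in LPS against Control and 0.69 in LPS+CsA against CsA, and limma's adjusted p was 0.298 (unadjusted p = 0.000459).

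ZFP62, a zinc finger protein, had 3.97, 2.92 and 2.43 FPKM in LPS and 1.71, 2.93 and 2.40 FPKM in LPS+CsA, against 1.16, 1.67 and 1.46 FPKM in CsA and 1.40, 1.01 and 1.53 FPKM in Control. The margin between the sides was narrow, at 1.71 FPKM against 1.67 FPKM. Its averaged log2 difference was 0.63 ± 0.14. LARP6, which binds collagen messenger RNAs, ranged from 7.10 to 18.6 FPKM with LPS, against 4.35 to 6.98 FPKM without it. MLF1, a myeloid leukaemia factor, ranged from 1.56 to 4.22 FPKM with LPS, against 0.505 to 1.51 FPKM without it. Leaving out any 1 library left the averaged difference of RASGRF2 between 0.64 and 0.80 and that of ZFP62 between 0.55 and 0.72.

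Genes of lipid handling and adipogenesis stood higher with LPS in 3 of the 3 members tested of 16 on the list, with a median log2 difference of 0.96, beside 0.012 for all genes and 0.17 for the 256 genes with a symbol. All 3 had an unadjusted p under 0.05, beside 7.66% of all genes on the higher side, and all 3 came from the authors' own list of genes differing between LPS and Control. APOD, a lipocalin that carries small lipids, had 620.1, 335 and 249 FPKM in LPS and 270.1, 183 and 334 FPKM in LPS+CsA, against 54.7, 62.1 and 166 FPKM in CsA and 235, 196 and 154 FPKM in Control. The sides overlapped, since LPS+CsA 2 lay below Control 1 and Control 2, and the lowest libraries were CsA 1 and CsA 2. APOD's averaged log2 difference was 1.28 ± 0.31 (adjusted p = 0.298 in limma), with 0.95 in LPS against Control and 1.61 in LPS+CsA against CsA.

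MEDAG, a cytoplasmic promoter of adipocyte differentiation, had 55.9, 36.5 and 46.2 FPKM in LPS and 34.6, 28.6 and 27.2 FPKM in LPS+CsA, against 22.6, 10.2 and 29.1 FPKM in CsA and 23.1, 13.5 and 19.1 FPKM in Control. The LPS libraries lay above all Control libraries, while CsA 3 overlapped LPS+CsA. The averaged log2 difference was 0.96 ± 0.24. ABCA6, a member of the ABC transporters of lipids, was highest in LPS 1 at 6.94 FPKM and differed by 0.74 ± 0.23 on the log2 scale.

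FGL2, a membrane prothrombinase that is also secreted by regulatory T cells, had 30.7, 15.9 and 9.06 FPKM in LPS and 9.46, 21.4 and 8.75 FPKM in LPS+CsA, against 3.50, 4.19 and 6.94 FPKM in CsA and 8.91, 5.73 and 7.31 FPKM in Control. Only LPS+CsA 3 and Control 1 broke the separation, at 8.75 and 8.91 FPKM. VGLL3, a cofactor of TEAD transcription factors, had 37.2, 21.6 and 14.6 FPKM in LPS and 16.1, 13.7 and 7.60 FPKM in LPS+CsA, against 4.53, 1.55 and 9.28 FPKM in CsA and 8.07, 11.7 and 7.70 FPKM in Control. All 3 LPS libraries lay above the libraries without LPS, and LPS+CsA 3 lay inside the range without LPS. Averaged over CsA, the log2 differences were 1.15 ± 0.29 for FGL2 and 1.27 ± 0.32 for VGLL3, each with an adjusted p of 0.298 in limma. CA9, a carbonic anhydrase known as a hypoxia-induced gene and named after its values were seen, differed by 1.05 ± 0.27, with its highest value of 17.1 FPKM in LPS 1.

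**Figure D2:**
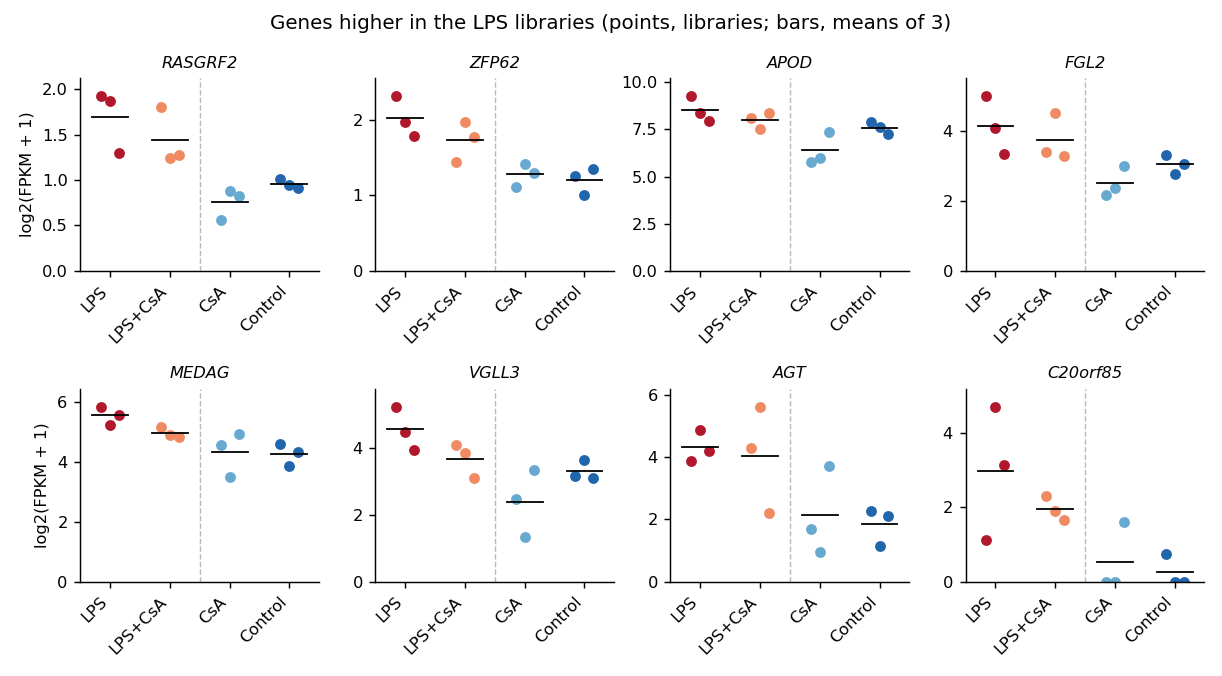
Log2(FPKM + 1) of 8 genes in each library (points) with the mean of 3 libraries per group (bars), the LPS and LPS+CsA groups left of the dashed line and CsA and Control right of it. RASGRF2 and ZFP62 show no overlap across the line, and the other genes overlap in at least 1 library.

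Angiotensinogen had the largest averaged difference among the symbol-bearing genes named here. AGT, the precursor of the angiotensin peptides, had 13.8, 28.1 and 17.3 FPKM in LPS and 18.3, 48.0 and 3.56 FPKM in LPS+CsA, against 2.23, 0.936 and 12.2 FPKM in CsA and 3.80, 1.20 and 3.32 FPKM in Control. Of the 6 LPS libraries, 5 lay above all libraries without LPS, and LPS+CsA 3 lay below CsA 3 and Control 1. The averaged log2 difference was 2.19 ± 0.57 (adjusted p = 0.298 in limma), with 2.48 in LPS against Control and 1.90 in LPS+CsA against CsA, and the authors' deposited table gives a log2 fold change of 2.84 for LPS against Control.

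The type 1 receptor gene pointed the other way. AGTR1, the type 1 angiotensin receptor of vascular and uterine smooth muscle, had 2.12, 1.73 and 2.06 FPKM in LPS and 0.899, 5.41 and 3.41 FPKM in LPS+CsA, against 16.8, 7.01 and 3.34 FPKM in CsA and 8.55, 3.08 and 2.92 FPKM in Control. The LPS libraries lay below all Control libraries, whereas LPS+CsA 2 and LPS+CsA 3 fell within the range without LPS. Its averaged log2 difference was -1.01 ± 0.38 (adjusted p = 0.335 in limma). AGTR2, the type 2 receptor, and ENPEP, the aminopeptidase that shortens angiotensin II, differed by -0.43 ± 0.68 and -0.34 ± 0.45, within their errors. Their signs changed with CsA, at -1.13 and 0.49 in LPS against Control and 0.27 and -1.18 in LPS+CsA against CsA. Of the 4 members tested of the 7 on the angiotensin list, 1 was higher and 1 lower at an unadjusted p under 0.05. That stood beside 7.66% and 4.37% of all genes, and 52 and 19 of the 256 symbol-bearing genes. The median was -0.39. On the authors' list for LPS against Control were 3 of the 4, so their differences there were part of how they were picked.

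Genes of multiciliated epithelium, the ciliated cells of the oviduct and endometrial surface, were higher with LPS in 4 of 5 members tested of 29 on the list, beside 52.6% of all genes, with a median log2 difference of 0.91. Of these, 3 had an unadjusted p under 0.05, beside 7.66% of all genes and 52 of the 256 symbol-bearing genes on that side. They were FOXJ1, C20orf85 and SPAG6, the last named after its values were seen. In LPS+CsA against CsA alone, all 5 were higher with a median of 0.62, and 0 had such a p. Of the 5, 4 were on the authors' list for LPS against Control and 3 on that for LPS+CsA against LPS. Differences among these same libraries were therefore part of how they were picked. The 4 higher members also passed the filter on low values only with the help of the LPS libraries. Without LPS, CDC20B and SPAG6 reached 1 FPKM in no library, and FOXJ1 and C20orf85 only in CsA 3. The count, the median and the p-values are thus not independent of a high level with LPS. TUBE1, which was lower, passed on both sides. FOXJ1, the transcription factor that directs formation of motile cilia, had 0.538, 11.5 and 2.87 FPKM in LPS and 3.09, 1.70 and 1.99 FPKM in LPS+CsA, against 0.471, 0.197 and 1.21 FPKM in CsA and 0.878, 0 and 0.342 FPKM in Control. All LPS libraries except LPS 1 exceeded every library without LPS, and LPS 2 stood far above the rest. Its averaged log2 difference was 1.33 ± 0.42 (adjusted p = 0.319 in limma).

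C20orf85, a ciliary microtubule protein, had 1.18, 25.2 and 7.79 FPKM in LPS and 3.96, 2.76 and 2.15 FPKM in LPS+CsA, while in CsA it was listed at 0, 0 and 2.04 FPKM and in Control at 0.668, 0 and 0 FPKM. Its averaged log2 difference was 2.08 ± 0.54 on the log2(FPKM + 1) scale, where zeros and low values limit the size. FAM166B, a related ciliary protein, ranged from 0.283 to 4.63 FPKM with LPS, against 0.0685 to 0.0846 FPKM in 5 of the libraries without LPS and 1.66 FPKM in Control 2. It rested on few reads in the authors' deposited table, with 18, 58 and 29 in LPS and 0, 19 and 0 in Control. The low values in Control 1 and Control 3 are therefore not measured levels. Without LPS only Control 2 reached 1 FPKM, so FAM166B too passed the filter through the LPS libraries. The exception on the list was TUBE1, the centriolar epsilon tubulin, at -0.66 ± 0.39. Without LPS 2, the list median was 0.65 and the count with an unadjusted p under 0.05 was 3. In bulk tissue, fewer cells of a type and less RNA per cell cannot be told apart, so these levels do not say whether ciliated cells or their transcripts differed in number.

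Several vascular and metabolic genes were higher with LPS, with their highest values in LPS 1. PTGIS, the prostacyclin synthase, had 90.8, 42.7 and 19.5 FPKM in LPS and 20.5, 32.1 and 12.1 FPKM in LPS+CsA, against 6.11, 23.4 and 10.7 FPKM in CsA and 15.9, 24.9 and 14.2 FPKM in Control. The sides overlapped in 3 of the 6 LPS libraries, and the averaged log2 difference was 0.97 ± 0.39 (adjusted p = 0.362 in limma). EDN2, the vasoconstrictor endothelin 2, reached 47.4 FPKM in LPS 1 but 0.674 FPKM in LPS+CsA 3, with an averaged difference of 1.32 ± 0.59. SELE, the leukocyte adhesion molecule E-selectin, differed by 0.021 ± 0.32. PTGIS and EDN2 were on the authors' list for LPS against Control, so their higher level there was part of how they were picked. The 3 members tested of 15 on the endothelial list had a median of 0.97. Of the 3, 2 had an unadjusted p under 0.05 on the higher side, beside 7.66% of all genes and 52 of the 256 symbol-bearing genes. Leaving out 1 library moved that count between 0 and 2, and it was 0 without LPS 2, without CsA 1 or without Control 3.

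KLF15 and PDK4, both known glucocorticoid-induced regulators of fuel use, differed by 0.94 ± 0.40 and 0.65 ± 0.33. Of the pair, KLF15 alone had an unadjusted p under 0.05, beside 7.66% of all genes and 52 of the 256 symbol-bearing genes on the higher side. KCNIP1, a potassium channel subunit, stood at 28.4 FPKM in LPS 1 and between 0.676 and 7.32 FPKM in the other LPS libraries, against 0.347 to 2.13 FPKM without LPS. CPXM2, a secreted carboxypeptidase-like protein of the stromal list, likewise had its highest value of 45.9 FPKM in LPS 1, against 3.08 to 7.48 FPKM without LPS. Averaged over CsA, the log2 differences of KCNIP1 and CPXM2 were 1.45 ± 0.50 and 1.10 ± 0.43. KLF15, PDK4, KCNIP1 and CPXM2 were all on the authors' list for LPS against Control, so their higher level there was part of how they were picked.

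Interferon-stimulated genes were lower with LPS throughout the list. All 8 members tested of the 39 on the list had negative averaged differences, with a median log2 difference of -1.35, and 7 had an unadjusted p under 0.05 where 4.37% of all genes did so on the lower side. All 8 were on the authors' list for LPS against Control, so their direction there is not independent. In limma, 0 of the 8 had an unadjusted p under 0.05 in LPS against Control, and 8 did without CsA 1. The p-values there and in LPS+CsA against CsA share 1 spread, estimated from all 12 libraries. Of the 8, 4 were also on the authors' list for LPS+CsA against LPS, which used the LPS+CsA libraries. Read in LPS+CsA against CsA, libraries that the list for LPS against Control did not use, all 8 were again lower, with a median of -1.58. Of these, 2 had an unadjusted p under 0.05 in limma, beside 2.78% of all genes on that side. That count was 8 without CsA 1 and 0 without CsA 2 or without CsA 3, and the median was -0.78 without CsA 3. That second direction rested on CsA 2 and CsA 3: with both left out, an alternative added after seeing the data, all 8 were higher in LPS+CsA than in CsA 1 with a median of 0.66 and 0 at an unadjusted p under 0.05, and the averaged median was -0.63 with 1 such gene.

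The summed FPKM of the 8 genes was 68.3 at the lowest, 139 at the median and 222 at the highest with LPS, against 105, 295 and 1605 without LPS. ISG15, the ubiquitin-like modifier induced by interferon, had 18.8, 12.6 and 29.1 FPKM in LPS and 45.6, 27.5 and 34.0 FPKM in LPS+CsA, against 22.2, 212 and 686 FPKM in CsA and 24.5, 93.8 and 59.1 FPKM in Control. CsA 3 and CsA 2 were the highest libraries, while CsA 1 and Control 1 lay within the range of the LPS libraries. ISG15's averaged log2 difference was -1.73 ± 0.66 (adjusted p = 0.347 in limma).

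IFI44L, an interferon-induced protein with little known biochemistry, had 19.4, 16.2 and 33.8 FPKM in LPS and 26.4, 34.7 and 26.5 FPKM in LPS+CsA, against 27.6, 142 and 175 FPKM in CsA and 33.5, 63.8 and 41.5 FPKM in Control. Its averaged log2 difference was -1.28 ± 0.40, with -0.99 in LPS against Control and -1.58 in LPS+CsA against CsA. MX2, a dynamin-like antiviral GTPase, had 21.6, 20.9 and 33.1 FPKM in LPS and 98.1, 83.6 and 40.1 FPKM in LPS+CsA, against 27.5, 240.0 and 309 FPKM in CsA and 71.4, 148 and 43.1 FPKM in Control. For MX2 the LPS+CsA libraries stood above the LPS libraries, and its reads could be shared with a close paralog. MX2's averaged log2 difference was -1.24 ± 0.54.

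CsA 3 and CsA 2 were again the highest libraries in the remaining named members. USP18, the protease that removes ISG15 from proteins, differed by -1.49 ± 0.52, IRF7, the transcription factor that amplifies interferon, by -1.41 ± 0.54, OAS2, an oligoadenylate synthetase, by -1.41 ± 0.53, and IFIT3, which binds viral RNA complexes, by -1.05 ± 0.43. TRIM14, an adaptor of antiviral signalling, differed by -0.88 ± 0.32 and had 18.6 and 23.9 FPKM in CsA 2 and CsA 3, against which its other libraries lay between 2.39 and 7.88 FPKM. Among 8 further genes that the authors' annotation calls interferon-inducible, a group assembled after values were seen, 6 were lower with a median of -0.91. Leaving out any 1 library kept the median of the 8 listed genes between -1.02 and -1.82, with between 4 and 8 genes at an unadjusted p under 0.05.

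**Figure D3:**
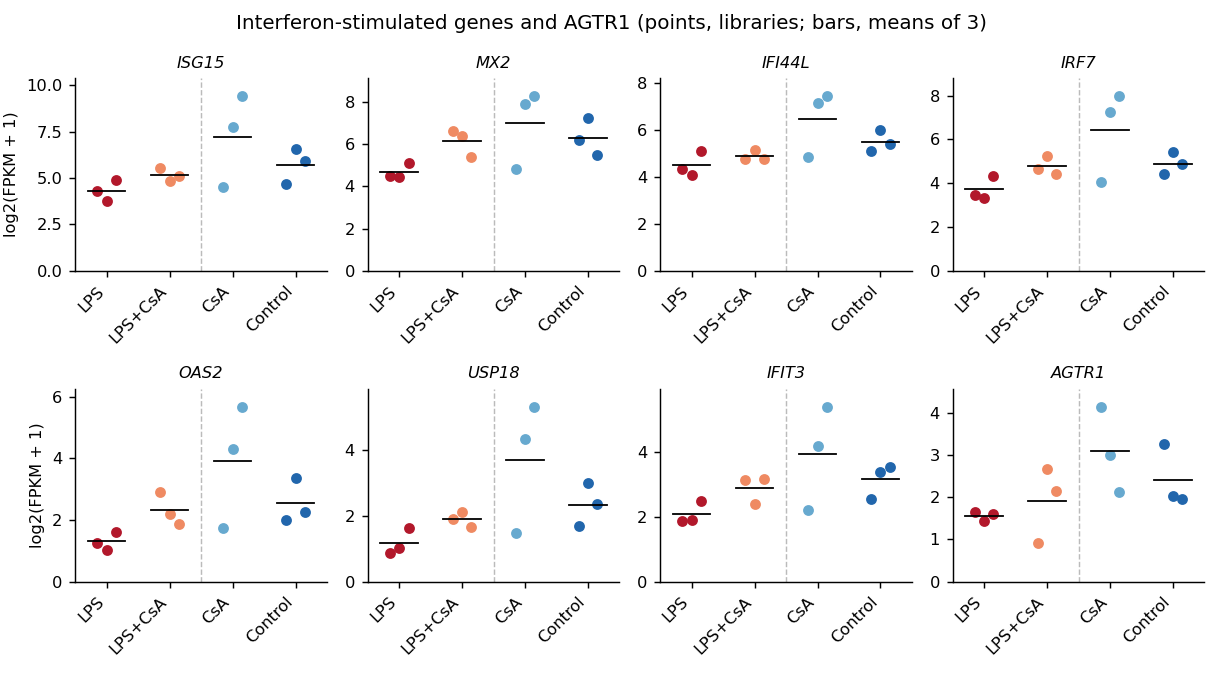
Log2(FPKM + 1) of 7 interferon-stimulated genes and AGTR1 in each library (points) with the mean of 3 libraries per group (bars), the LPS and LPS+CsA groups left of the dashed line. CsA 2 and CsA 3 stand highest for each interferon-stimulated gene, for example at 212 and 686 FPKM of ISG15, and CsA 1 lies among the LPS libraries.

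Other genes named on the lower side were few. NECAB3, a calcium-binding protein, had 0.359, 1.01 and 0.860 FPKM in LPS and 1.33, 2.14 and 1.35 FPKM in LPS+CsA, against 2.95, 2.83 and 1.16 FPKM in CsA and 2.47, 2.24 and 2.37 FPKM in Control. Apart from CsA 3 every library without LPS lay above every LPS library. Its averaged log2 difference was -0.64 ± 0.20 (adjusted p = 0.316 in limma). FEZF2, a transcription factor best known from forebrain neurons, and TMEM30B, a subunit of phospholipid flippases, differed by -0.85 ± 0.32 and -1.01 ± 0.39, and both overlapped between the sides. CRYM, a thyroid hormone-binding crystallin, differed by -0.69 ± 0.36, with its highest value of 21.1 FPKM in Control 2.

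The chemokines and NF-kB feedback genes, classical targets of LPS signalling, had medians of opposite sign with and without CsA, and the sign without CsA rested on Control 3. All 4 chemokines tested of 24 on the list were higher on average, with a median log2 difference of 0.27, but all 4 were lower in LPS than in Control (median -0.44; 47.1% of all genes were lower) and all 4 higher in LPS+CsA than in CsA (median 1.28). The 5 NF-kB genes tested of 19 had medians of 0.51 averaged, -0.25 in LPS against Control and 0.84 in LPS+CsA against CsA, with all 5 higher in the last. Without Control 3, the medians in LPS against Control were 0.33 for the chemokines, all 4 higher, and 0.34 for the NF-kB genes, 4 of 5 higher. In limma's test of the difference by CsA, 1 chemokine and 1 NF-kB gene had an unadjusted p under 0.05, beside 3.06% of all genes, and none had an adjusted one. None of these 9 members was listed for LPS against Control except CXCL10, but all were on the authors' list for LPS+CsA against LPS, which shares the LPS+CsA libraries. Symbol-bearing genes as a whole leaned the same way, with 179 of 256 higher in LPS+CsA than in CsA and 123 of 256 higher in LPS than in Control, beside 51.5% and 52.9% of all genes.

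CX3CL1, the membrane-bound chemokine fractalkine, had 2.88, 7.74 and 7.42 FPKM in LPS and 23.3, 13.4 and 46.8 FPKM in LPS+CsA, against 2.86, 6.14 and 4.85 FPKM in CsA and 3.78, 3.56 and 39.8 FPKM in Control. The LPS+CsA libraries exceeded all CsA libraries, and Control 3 stood with them. The averaged log2 difference was 0.84 ± 0.66, with -0.55 in LPS against Control and 2.23 in LPS+CsA against CsA (unadjusted p for the difference by CsA 0.026, adjusted p = 1.00 in limma). CXCL10, a T cell attractant, CXCL11, its relative, and CXCL8, the neutrophil attractant, differed on average by 0.41 ± 0.82, 0.13 ± 0.35 and 0.12 ± 0.47, all within error.

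BIRC3, an inhibitor of apoptosis induced by NF-kB, had 11.3, 16.8 and 13.7 FPKM in LPS and 24.4, 21.1 and 78.8 FPKM in LPS+CsA, against 12.6, 13.5 and 15.2 FPKM in CsA and 9.41, 12.1 and 39.0 FPKM in Control. LPS+CsA 3 and Control 3 were the highest libraries of each side. BCL3, a nuclear IkB protein, reached 64.6 FPKM in LPS+CsA 3 and differed on average by 0.51 ± 0.26. TNFAIP2 and TNFAIP3, which encodes the feedback inhibitor A20, differed by 0.19 ± 0.40 and 0.20 ± 0.31. TNFAIP8, a regulator of lipid-dependent cell survival named after its values were seen, was the only member with an unadjusted p under 0.05, at 1.22 ± 0.36. It had 2.13, 1.44 and 0.00109 FPKM in the LPS libraries, 3.05, 2.98 and 5.88 FPKM in the LPS+CsA libraries, and, against these, 0.305 FPKM in CsA 1, 3.00 FPKM in CsA 3 and less than 0.001 FPKM in the remaining libraries without LPS. Without LPS+CsA 3, the averaged medians were 0.0054 for the chemokines and 0.16 for the NF-kB genes.

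Neutrophil S100 genes were high in the same library. The summed FPKM of S100A8, S100A9 and S100A12 was 14.0, 68.7 and 527 at the lowest, median and highest with LPS, against 8.68, 62.2 and 399 without LPS, and the highest library of the LPS side was LPS+CsA 3. S100A8 reached 344 FPKM in LPS+CsA 3, against 251 FPKM in CsA 3 and 166 FPKM in Control 3. S100A8 differed by 0.53 ± 1.03, S100A9 by 0.36 ± 0.93 and S100A12 by 0.36 ± 0.90, so the spread between animals was more than the difference. The part of neutrophils in the chemokine and NF-kB values was not tested. DMBT1, a mucosal pattern-recognition glycoprotein on the antimicrobial list, differed by 0.58 ± 0.42.

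**Figure D4:**
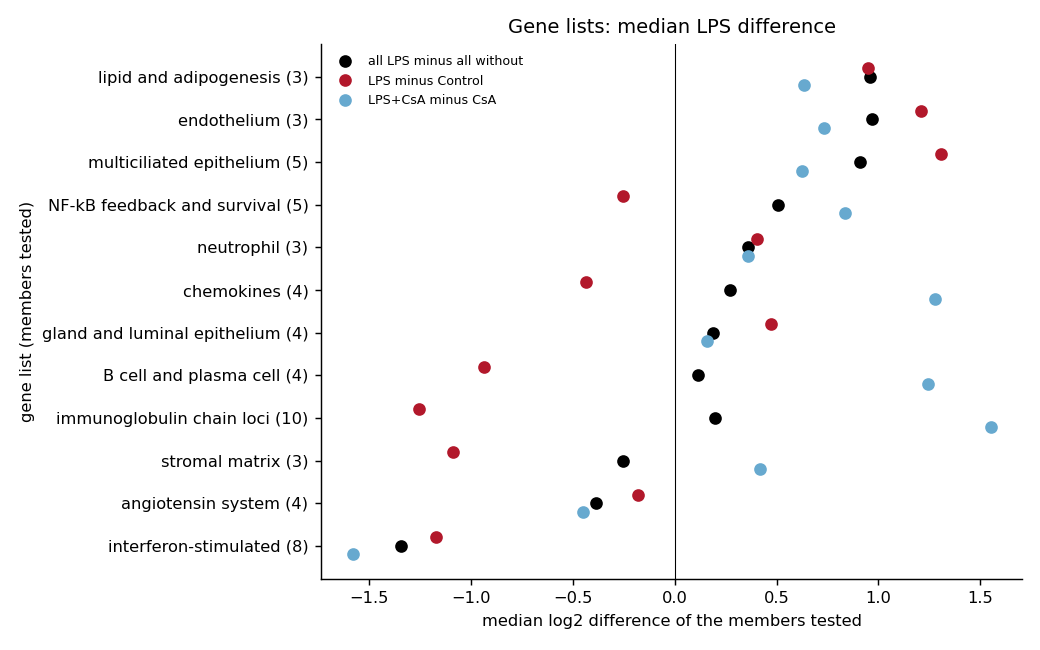
Median log2 difference of the tested members of 12 gene lists (number in brackets), for all LPS libraries minus all without LPS (black), LPS minus Control (red) and LPS+CsA minus CsA (blue). The interferon-stimulated list lies below 0 in all 3 at -1.35, -1.17 and -1.58, while the plasma cell, immunoglobulin and chemokine lists lie on opposite sides of 0 in the red and blue points, which for the chemokines no longer holds without Control 3 (LPS minus Control at 0.33).

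For a further set of genes the averaged difference was close to 0 and the separate comparisons had opposite signs. The 4 members tested of the B cell and plasma cell list had a median of 0.11 on average, -0.94 in LPS against Control and 1.24 in LPS+CsA against CsA. The 10 immunoglobulin chain loci, grouped by the authors' annotation after values were seen, had medians of 0.20, -1.25 and 1.55, with all 10 lower in LPS than in Control and all 10 higher in LPS+CsA than in CsA. Most were listed by the authors for LPS+CsA against LPS (8 of the 10 loci, all 4 of the plasma cell genes). A higher level in LPS+CsA than in LPS was thus part of how they were picked. On the authors' list for LPS against Control were 8 of the 10 loci and 2 of the 4 plasma cell genes. Their lower level in LPS than in Control, and with it the opposite signs, therefore came in part from that choice. Reads of such multigene loci may also be shared.

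JCHAIN, the joining chain of polymeric antibodies, had 14.7, 21.7 and 20.4 FPKM in LPS and 65.7, 99.6 and 56.3 FPKM in LPS+CsA, against 10.2, 38.2 and 17.1 FPKM in CsA and 31.1, 31.0 and 120.4 FPKM in Control. All LPS libraries lay below all Control libraries, and all LPS+CsA libraries lay above all CsA libraries. The averaged log2 difference was 0.26 ± 0.59, with -1.35 in LPS against Control and 1.87 in LPS+CsA against CsA, and the difference by CsA was 3.21 ± 0.76 (unadjusted p = 0.00151, adjusted p = 0.914 in limma). MZB1, a chaperone of antibody-secreting cells, and IGHM, the mu heavy chain, differed by CsA by 2.39 ± 0.62 and 1.97 ± 0.48. TRAC, the T cell receptor alpha constant chain and the only measured marker of T cells, differed by -1.08 in LPS against Control and 0.41 in LPS+CsA against CsA.

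KRT75, a keratin of stratified epithelium and hair follicle, and TTC39C had the smallest p for the difference by CsA among symbol-bearing genes in that direction. KRT75 had 4.90, 5.60 and 6.58 FPKM in LPS and 25.7, 13.0 and 29.3 FPKM in LPS+CsA, against 11.9, 5.54 and 15.1 FPKM in CsA and 32.1, 18.5 and 18.3 FPKM in Control. TTC39C, a tetratricopeptide protein, had 4.39, 5.65 and 4.74 FPKM in LPS and 10.3, 11.2 and 7.95 FPKM in LPS+CsA, against 4.28, 5.32 and 3.96 FPKM in CsA and 5.92, 7.24 and 9.37 FPKM in Control. In both genes the LPS and CsA groups had the lower means and LPS+CsA and Control the higher ones. The difference by CsA was 2.82 ± 0.52 for KRT75 (adjusted p = 0.563) and 1.47 ± 0.25 for TTC39C (adjusted p = 0.517), neither passing in limma.

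TUBE1 differed by -1.72 in LPS against Control and 0.41 in LPS+CsA against CsA, and RLA-DRB1, the class II antigen-presenting beta chain of the rabbit, by -1.29 and 0.92. LSM10, a subunit of the U7 particle that processes histone messages, went the other way, with 13.7, 17.8 and 19.3 FPKM in LPS and 3.82, 1.83 and 1.51 FPKM in LPS+CsA, against 10.5, 6.17 and 10.9 FPKM in CsA and 12.7, 12.7 and 4.47 FPKM in Control. The LPS libraries were the highest and the LPS+CsA libraries the lowest of the 4 groups. LSM10 rested on few reads, with 34, 50 and 56 in the LPS libraries and 8, 5 and 4 in the LPS+CsA libraries per the authors' deposited table. EFHD1, a mitochondrial calcium-binding protein, differed by 0.57 in LPS against Control and -0.32 in LPS+CsA against CsA.

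Globin and haem synthesis genes were on average lower in LPS than in Control and higher in LPS+CsA than in CsA. HBB2, a beta globin, had 108, 127 and 125 FPKM in LPS and 336, 119 and 249 FPKM in LPS+CsA, against 200.2, 138 and 169 FPKM in CsA and 374, 214 and 208 FPKM in Control. The LPS libraries were below all Control libraries, and LPS+CsA overlapped CsA. HBB2 and ALAS2, the erythroid aminolevulinate synthase, differed by -1.09 and -0.77 in LPS against Control and by 0.36 and 0.46 in LPS+CsA against CsA. JCHAIN had the same signs, and the part of blood in those genes was not tested. PPIA, the cyclophilin that binds CsA, ranged from 0.142 to 25.0 FPKM with LPS, against 0 to 23.5 FPKM without LPS, and differed by 1.98 ± 0.98; cyclophilin A has many near-identical copies in mammalian genomes, so its value is uncertain.

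**Figure D5:**
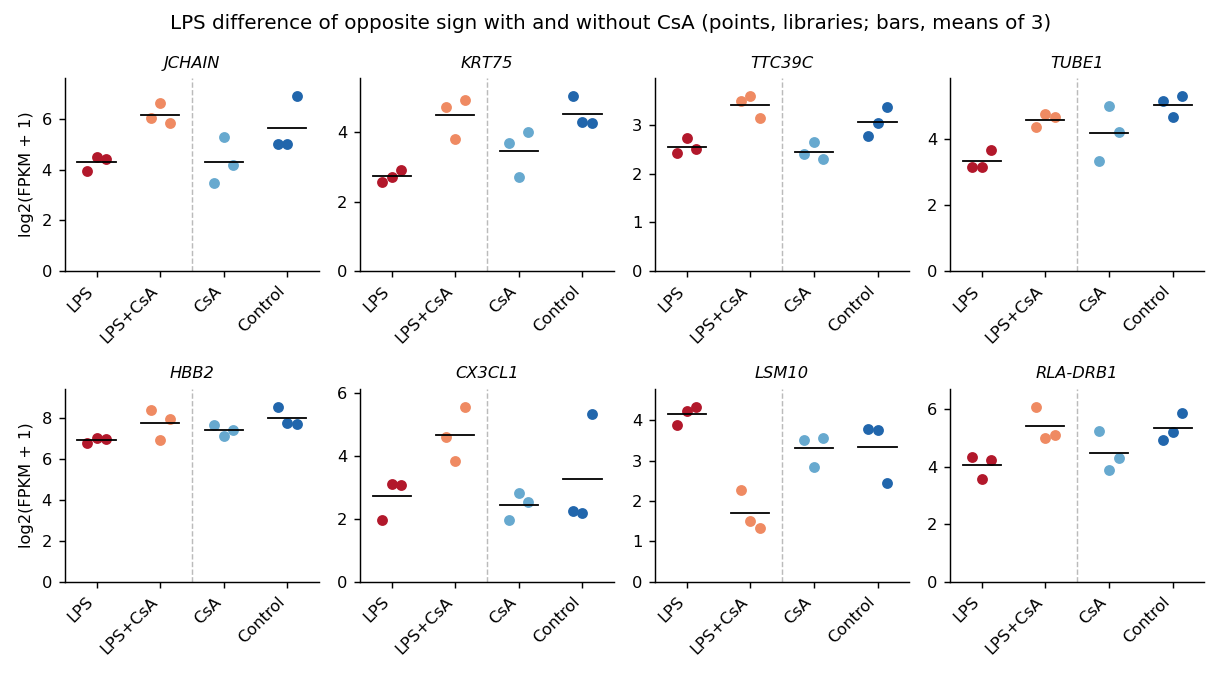
Log2(FPKM + 1) of 8 genes in each library (points) with the mean of 3 libraries per group (bars), in the order LPS, LPS+CsA, CsA and Control. JCHAIN, KRT75 and TTC39C have lower means in LPS and CsA than in LPS+CsA and Control, and LSM10 is lowest in LPS+CsA at 1.51 to 3.82 FPKM.

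The authors' deposited list for LPS against Control was chosen on those 6 libraries and was read in the 6 libraries of LPS+CsA and CsA, which it did not use. The differences and overlaps came from the latter 6 libraries alone. The p-values still used a spread estimated from all 12 libraries, so they are not independent of the choice. Of 160 genes that the list gives as higher in LPS, 138 were tested and 113 (81.9%) were also higher in LPS+CsA than in CsA, where 51.5% of all genes were. Of the 138, 11 (7.97%) had an unadjusted p under 0.05 on that side, beside 4.19% of all genes, and 0 had one on the other side. The groups did not overlap on that side for 16 (11.6%), beside 6.51% of all genes. The median log2 difference of the 138 was 0.42 in LPS+CsA against CsA, beside 0.95 in LPS against Control, on which they had been chosen. The listed genes that were not tested had fewer than 3 libraries at 1 FPKM.

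The lower list behaved differently. Of 123 genes given as lower in LPS, 111 were tested and 48 (43.2%) were lower in LPS+CsA than in CsA, where 48.5% of all genes were. Of the 111, 4 (3.60%) had an unadjusted p under 0.05 on that side, beside 2.78% of all genes, while 14 had one on the higher side, and for 0 were all LPS+CsA libraries below all CsA libraries, beside 6.04% of all genes. The median of the 111 was 0.11 in LPS+CsA against CsA, beside -1.03 in LPS against Control. The interferon-stimulated genes were among the 48, and JCHAIN, MZB1, KRT75, TUBE1, HBB2 and TRAC were not. Leaving out any 1 library kept the same-side counts between 108 and 117 for the higher list and between 45 and 57 for the lower.

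Most of the genes behind the counts have no symbol in these files, 1468 of the 1539 at an unadjusted p under 0.05. Loci that the authors assembled from their own reads made up 117 of the 1539 and 1151 of the 12794 tested. ENSOCUG00000014859 had the smallest p on the higher side, with 36.4, 36.1 and 27.6 FPKM in LPS and 32.6, 32.9 and 27.5 FPKM in LPS+CsA, against 23.2, 19.7 and 19.7 FPKM in CsA and 23.0, 24.8 and 23.4 FPKM in Control. The sides did not overlap, and the averaged log2 difference was 0.51 ± 0.088 (unadjusted p = 9.14e-05, adjusted p = 0.298 in limma). On the lower side ENSOCUG00000012098 ranged from 20.2 to 24.7 FPKM with LPS, against 26.2 to 36.4 FPKM without it, and differed by -0.43 ± 0.091.

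Among the 71 genes without overlap, 5 differed by at least 2-fold, none with a symbol. ENSOCUG00000017473 ranged from 1.37 to 11.1 FPKM with LPS, against 0 to 0.699 FPKM without it, and so passed the filter through the LPS libraries alone. Of the assembled loci, Rabbit_newGene_4162 had 14.3 to 24.7 FPKM with LPS, against 3.28 to 13.9 FPKM without it, and Rabbit_newGene_7239 had 68.2 to 494 FPKM with LPS, against 5.42 to 64.9 FPKM without it. On the lower side Rabbit_newGene_2541, on the plus strand of chromosome 19 from 9894241 to 10167115 in the authors' coordinates (build not given in the sources used here), had 12.2 to 20.6 FPKM with LPS, against 21.0 to 52.3 FPKM without it. ENSOCUG00000029357, among the most abundant loci, had 452 to 2622 FPKM with LPS, against 2759 to 4819 FPKM without it, a log2 difference of -1.73 ± 0.46 (adjusted p = 0.298 in limma). Rabbit_newGene_4162, Rabbit_newGene_7239 and ENSOCUG00000029357 were named after their values were seen.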

How the data were processed

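Uterine body RNA-seq libraries came from 12 rabbits, 3 per group, and groups were taken from the sample titles. The deposited values are FPKM per gene and library; TopHat2, Cufflinks and Cuffnorm are named per the submitters' processing notes, with versions and genome build not given in the sources used here. FPKM carry no depth, and counting error was not computed. The authors' deposited comparison tables also hold read counts, log2 fold changes and p-values for selected genes. They were used for gene symbols (303 of 437 identifiers, 4 renamed to RefSeq symbols), to read the authors' lists and for the reads of LSM10, FAM166B and TNFAIP8. In those tables, 24 per-library columns were not used. Coordinates of assembled loci are the authors' own, per the labels of their deposited annotation.

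Values were log2(FPKM + 1), fitted in limma 3.58.1 (R 4.3.3) with LPS and CsA as factors, moderated variances with an intensity trend and Benjamini-Hochberg adjustment at 0.05 over 12794 genes; a fold change on this scale understates the change of low genes. Contrasts within each CsA level and their difference came from a model of 4 group means, fitted to all 12 libraries with 1 shared estimate of the spread. The fit was checked on simulated data. Summaries used Python 3.11.15, pandas 2.3.3 and matplotlib 3.10.9. Where a ± follows a log2 difference it is the standard error of the fit. Genes named are the 8 symbol-bearing genes of smallest p per direction, the 5 per direction with the largest smaller difference across both CsA levels, up to 4 most abundant members per list, the 2 per direction of smallest p for the difference by CsA, and 2 per direction without a symbol. Members, lists and rules were chosen with earlier results of these data known. Alternatives varied the pseudocount, filter, scaling, variance model, factors and each library; the pairs of libraries left out together were chosen after seeing the data. Replicates are separate animals per the labels. One gene that the rule names is not reported here.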

Additional observations from a re-analysis of the deposited data

Results flagged for a closer look

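In 18 of 170 sets of 6 libraries, 1 library lay far from the other 5 on the log2 scale, where chance alone flags about 1 in 20 sets. Among the LPS libraries, LPS+CsA 3 stood apart 4 times, as the highest for CXCL8 at 6.06 FPKM, BCL3 at 64.6 FPKM and SELE at 9.92 FPKM and the lowest for PPIA at 0.142 FPKM. LPS 2 was the highest for CDC20B at 9.98 FPKM and MLF1 at 4.22 FPKM, and LPS 1 for GYG1 at 94.7 FPKM. LPS+CsA 1 was the lowest for ENPEP at 1.65 FPKM and the highest for SLC5A12 at 6.71 FPKM. Among the libraries without LPS, CsA 3 was the lowest for NECAB3 at 1.16 FPKM and the highest for TNFAIP8 at 3.00 FPKM and SPAG6 at 0.620 FPKM, and CsA 2 was the lowest for AGTR2 at 1.98 FPKM. Control 3 was the highest for CX3CL1 at 39.8 FPKM and BIRC3 at 39.0 FPKM, Control 2 for FAM166B at 1.66 FPKM and CRYM at 21.1 FPKM, and Control 1 was the lowest for Rabbit_newGene_7239 at 5.42 FPKM. No explanation for these libraries was tested.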

How the results depend on the processing

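No averaged call was gained or lost under the planned settings except without LPS+CsA 1, where 1 gene without a symbol was lower with an adjusted p of 0.0493; leaving out 1 library gave 0 to 1 genes, and the smallest adjusted p ranged from 0.0493 to 0.528 over all settings. Genes at an unadjusted p under 0.05 ranged from 1146 to 1672 when 1 library was left out and numbered 893 with both LPS 1 and CsA 2 left out. For LPS against Control the adjusted count was 2 with no filter on low values, 0 to 1 without 1 library (1 without LPS 1 or without LPS+CsA 3) and 1 with both LPS 1 and CsA 2 left out, where the unadjusted count was 511; with 1 library left out that count ranged from 432 (without LPS 1) to 1036. For LPS+CsA against CsA the adjusted count was 0 to 1 without 1 library (1 without CsA 1), 1 using only the libraries of that comparison and 2 with both CsA 2 and CsA 3 left out, where the unadjusted count was 579; with 1 library left out that count ranged from 533 (without LPS+CsA 1) to 1097. For the difference by CsA the adjusted count was 0 to 1 without 1 library (1 without LPS 1), 2 with both CsA 2 and CsA 3 left out and 1 with both LPS 1 and CsA 2 left out, and the unadjusted count was 228 at a mean of at least 5 FPKM and 314 to 611 (without Control 2) otherwise. Genes without overlap ranged from 64 to 197 above (197 without LPS+CsA 3) and 18 to 66 below (66 without LPS+CsA 2), since fewer libraries overlap less. Of the authors' lists, 56 of 64 higher and 21 of 44 lower genes kept their side at a mean of at least 5 FPKM, fewer genes being tested. With the replicate number as a block, 1889 genes had an unadjusted p under 0.05 and 0 an adjusted one (smallest 0.212). Same-numbered libraries had deviations correlated between -0.091 and 0.42 (median 0.085, against -0.059 between different numbers), over 0.1 in 8 of 18 pairs, and 9 of 12 libraries correlated best with their own number. All 6 pairs numbered 3 lay between 0.19 and 0.28. This is a hint from the data; since no label ties the numbers to a shared batch and not every pair passed 0.1, the numbers were not used as pairs. The cause of these shifts was not tested. Of 2092 values of 85 named genes under alternatives, 2032 kept their sign and 60, in 22 genes near 0, did not. With 1 library left out, log2 differences ranged from -0.025 to 1.11 for CXCL10, -0.10 to 0.39 for CXCL11, -0.19 to 0.50 for CXCL8, -0.10 to 0.48 for TNFAIP2, -0.032 to 0.44 for TNFAIP3, -0.14 to 0.93 for S100A9, -0.092 to 0.91 for S100A12, -0.46 to 0.056 for RLA-DRB1, -0.18 to 0.51 for CTSE, -0.10 to 0.72 for JCHAIN, -0.25 to 0.21 for DERL3, -0.35 to 0.29 for MZB1, -0.31 to 0.032 for ALAS2, -0.19 to 0.41 for MAL, -0.48 to 0.027 for GREM1, -0.33 to 0.15 for SELE, -0.49 to 0.12 for ENPEP, -0.11 to 0.21 for SLC34A2, -0.36 to 0.054 for CKMT2 and -0.00070 to 0.21 for EFHD1. With array weights the values were -0.11 for CXCL8, -0.085 for S100A9, -0.060 for S100A12 and 0.017 for DERL3. SELE was -0.085 with a pseudocount of 0.1 and -0.0018 after quantile normalization. With both CsA 2 and CsA 3 left out, the values were -0.071 for TNFAIP2, -0.023 for IGHM, -0.12 for KRT82, -0.068 for SELE and -0.029 for SLC34A2. With both LPS 1 and CsA 2 left out, they were -0.029 for CXCL8, -0.23 for S100A9, -0.19 for S100A12, 0.13 for MZB1 and -0.026 for SLC34A2.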

Other observations

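The 4 genes of gland and luminal epithelium had a median log2 difference of 0.19: PLLP, a myelin and epithelial membrane protein, differed by 0.41 ± 0.19, WNT11 by 0.22 ± 0.22, SOX9, a factor of gland progenitors, by 0.15 ± 0.22 and MAL, an apical sorting protein, by 0.094 ± 0.47. In the stroma, IBSP (bone sialoprotein) and GREM1 (a BMP antagonist) differed by -0.90 ± 0.51 and -0.25 ± 0.36. SLC5A12, a lactate cotransporter, differed by -0.63 ± 0.35 and SLC34A2, a phosphate transporter, by 0.081 ± 0.27. GYG1, which primes glycogen, had 94.7, 38.9 and 42.8 FPKM in LPS and 27.8, 30.6 and 28.0 FPKM in LPS+CsA, against 30.8, 30.0 and 36.3 FPKM in CsA and 26.7, 31.1 and 41.1 FPKM in Control, so that LPS 1 alone stood clear of the rest.

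The largest averaged differences irrespective of error came from loci that were close to absent in some animals and abundant in others. ENSOCUG00000022443 had 0, 77.2 and 0 FPKM in LPS and 0.779, 0 and 0 FPKM in LPS+CsA, against 236, 99.9 and 0 FPKM in CsA and 86.9, 145 and 71.0 FPKM in Control, a log2 difference of -4.54 ± 1.34 (adjusted p = 0.310 in limma). Rabbit_newGene_6971 was listed at 0 in LPS 1, LPS+CsA 1, CsA 1 and all 3 Control libraries, and at 188 to 364 FPKM in 5 others across LPS, LPS+CsA and CsA. Both were named after their values were seen, and why animals differ was not tested.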
